A study of Rattus norvegicus with 2 samples.

Results

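Genes of the acute-phase response, of cytokine signalling and of the NF-kB pathway were examined in the left adrenal medulla of adult male Sprague-Dawley rats with a history of recurrent hypoglycemia (RH) or of saline. The list holds 37 genes: acute-phase proteins, members of the IL6 and IL1 families with their receptors, chemokines, and NF-kB subunits with their regulators. A probe set is a group of short oligonucleotides that together read 1 transcript. A probe set was taken where the array annotation names exactly 1 gene and that gene is on the list. This gave 49 of the 31042 probe sets and 36 of the 14217 named genes. No probe set was named for Osmr, the oncostatin M receptor, which was therefore not analysed here.

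The 2RH30 rats had been given human insulin intraperitoneally at 2 IU/kg, 2 times per day, for 3 days, and the 2RS30 rats had been given saline on the same schedule, with a morning injection alone on the third day according to the methods. All animals went through a hyperinsulinemic clamp on day 4, with glucose held at 40 to 50 mg/dL per the labels and at the lower part of that range per the methods, and tissue was taken 30 min after the target was reached. RNA of 6 rats per group was pooled and read on 1 Affymetrix rat genome array per group. The 2RS30 pool thus comes from rats in acute hypoglycemia and not from rats at rest, and the 2 pools differ in the antecedent treatment. Each group has 1 array, so no difference below has a replicate check, no test was possible and no p-value is given.

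Cytokines such as IL6, LIF, IL1 and TNF bind receptors on the cell surface. IL6 and LIF act through the shared receptor chain gp130, which activates STAT3, and STAT3 switches on feedback inhibitors of the SOCS family. IL1 and TNF activate the IkB kinase, which marks inhibitory IkB proteins for breakdown and releases NF-kB dimers into the nucleus, where they raise many of the genes examined here, including genes for their own inhibitors. In the adrenal gland these cytokines can act on both cortical and chromaffin cells, and IL6 is also made within the gland.

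All values are the log2 values deposited by the authors, and every difference is 2RH30 minus 2RS30. The arrays also differed in technical measures. Values were spread more widely in 2RH30 (SD over probe sets 1.57) than in 2RS30 (1.28), and the median difference was -0.38 in the dimmest of 20 level bins and 0.49 in the brightest. Some values recurred exactly between probe sets of different genes. In 2RS30, Ccr2 and Map3k7 both read 6.0854, and Ikbkb and Il1rap both read 6.5299. The reason was not tested. The spiked hybridization control bioB averaged 9.99 in 2RH30 and 13.15 in 2RS30 over 3 probe sets. Differences are therefore also given, for the main probe set of each gene described, after the trend with level was removed by lowess, called level-adjusted. The SD between probe sets of 1 gene, the only repeated measure in the data, was 1.01 at mean levels from 5 to 6, 0.77 from 6 to 7 and 0.64 above 7, and it holds no spread between animals. It was taken over probe sets that are not dim, a filter that widens it at low levels: with dim ones included it was 0.83 from 5 to 6. Below a level of 5 it is not used, since the 24 probe sets of 12 genes that pass the filter there each differed by 0.71 or more between the arrays. A gene is called dim where its value lies below the median of the array on both arrays (5.51 in 2RH30 and 5.50 in 2RS30). The tissue label was compared with markers. The chromaffin genes had a median value of 9.45 in 2RH30 and 8.69 in 2RS30 over 8 genes. Genes of the adrenal cortex, with 11.58 in 2RH30 and 10.98 in 2RS30 over 6 genes, were bright as well. All 14 genes of these 2 lists were higher in 2RH30 as deposited, none of them by 2-fold, and level-adjusted their medians were 0.04 and 0.04.

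Of the 36 measured genes, 7 were 2-fold or more higher in 2RH30 and 4 were 2-fold or more lower. The 7 are Bcl3, Timp1, Lcn2, Nfkb2, Socs2, Nfkb1 and Rela, and the 4 are Cxcl12, Il6, Vcam1 and Ikbkb. Over all 14217 genes the shares were 11.5% higher and 9.62% lower, against 19.4% and 11.1% of the 36. Level-adjusted, 5 genes were higher and 3 lower by 2-fold or more, where the shares over all genes were 8.95% and 9.31%. Nfkb1, Rela and Vcam1 were no longer past 2-fold in that form. The median difference of the 36 genes was 0.14 (level-adjusted 0.11), against 0.11 (level-adjusted 0.02) over all genes, with an SD over the genes of 0.91, against 0.83 over all genes. The genes thus did not move together to 1 side, since 21 lay above 0 and 15 below. This is 58.3% above 0, near the 56.1% of all genes. Level-adjusted it was 61.1%, against 51.2%. Of the 28 genes with a mean level of 5 or more, 10 (35.7%) had a level-adjusted difference larger than the SD between probe sets, against 24.2% of all 10405 such genes. These 10 are Socs2, Cxcl12, Nfkb1, Nfkb2, Rela, Nfkbib, Bcl3, Ikbkb, Lcn2 and Timp1. Il6 and Vcam1 lie below that level and were not judged in this way. Of the 36 genes, 11 were dim: Lif, Il6r, Tnf, Il1rn, Il1r2, Relb, Tnfaip3, S100a8, Icam1, Vcam1 and Ptgs2. Their differences ranged between -1.03 and 0.71. Just below the limit lay Relb (5.45 in 2RH30 and 5.39 in 2RS30) and Tnf (5.05 in 2RH30 and 5.43 in 2RS30), and just above it Cxcl1 (5.11 in 2RH30 and 5.52 in 2RS30) and Il6 (4.06 in 2RH30 and 5.54 in 2RS30).

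**Figure D1:**
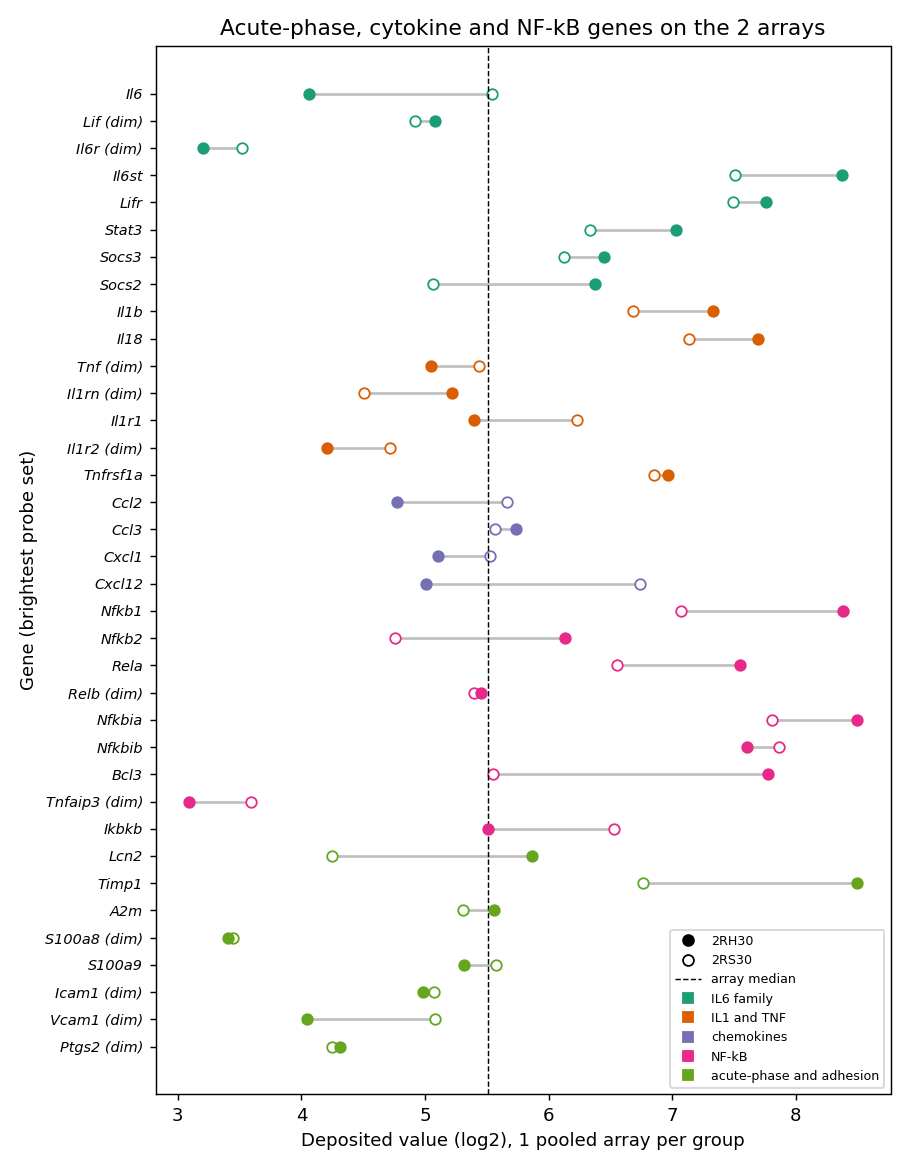
Deposited value (log2, horizontal axis) of the brightest probe set of each of the 36 genes (vertical axis) in 2RH30 (filled) and 2RS30 (open), 1 pooled array per group. The dashed line is the array median, 5.51 in 2RH30, and the longest lines belong to Bcl3, Timp1, Cxcl12 and Lcn2.

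Among the 8 genes of IL6 signalling, Il6 was lower and Socs2 higher in 2RH30 by 2-fold or more, and the receptors and Stat3 had no single direction over their probe sets and adjustments. Il6, the cytokine itself, read 4.06 in 2RH30 and 5.54 in 2RS30, a difference of -1.48 (level-adjusted -1.29), or 2.78-fold higher in 2RS30. Its value in 2RS30 lay just above the array median, and its value in 2RH30 below it. Of the 1000 probe sets closest to it in mean level, 10.6% were as low or lower after the level adjustment. Lif, a cytokine of the same family, was dim and read 5.08 in 2RH30 and 4.92 in 2RS30, a difference of 0.16 (level-adjusted 0.27). Il6r, the receptor chain that binds IL6, was dim as well and read 3.20 in 2RH30 and 3.52 in 2RS30, with a sign that depended on the adjustment (-0.32 as deposited and 0.11 level-adjusted).

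The gene for gp130, Il6st, was read by 4 probe sets that did not give 1 answer. The brightest read 8.38 in 2RH30 and 7.51 in 2RS30, a difference of 0.87 (level-adjusted 0.42). The second read 7.46 in 2RH30 and 5.34 in 2RS30, a difference of 2.12 (level-adjusted 1.89), which only 1.5% of probe sets of similar level matched. The other two differed by -0.23 and 0.31, so 3 of the 4 lay above 0 and 1 was past 2-fold. Lifr, the LIF receptor, showed the same kind of split. Its brightest probe set read 7.76 in 2RH30 and 7.49 in 2RS30 (0.27, level-adjusted -0.14), and the other read 7.39 in 2RH30 and 5.90 in 2RS30 (1.49, level-adjusted 1.23).

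Stat3, the transcription factor downstream of gp130, read 7.04 in 2RH30 and 6.34 in 2RS30, a difference of 0.70 (level-adjusted 0.43). Its other probe set, which was dim, differed by -0.63 (level-adjusted -0.55), so the direction for Stat3 depended on the probe set. Of the feedback inhibitors, Socs3, which binds gp130, read 6.45 in 2RH30 and 6.12 in 2RS30. The difference of 0.32 (level-adjusted 0.12) was smaller than the SD between probe sets of 0.77. Socs2, an inhibitor best known for its action on the growth hormone receptor, read 6.38 in 2RH30 and 5.07 in 2RS30, a difference of 1.31 (level-adjusted 1.18), or 2.48-fold. It was the gene of this group that lay 2-fold or more above 2RS30 by its brightest probe set.

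None of the 7 listed ligands and receptors of IL1 and TNF signalling differed by 2-fold in its brightest probe set. Il1b, the IL1 ligand on the list, read 7.33 in 2RH30 and 6.68 in 2RS30, a difference of 0.65 (level-adjusted 0.33). Il18, a related cytokine, read 7.70 in 2RH30 and 7.14 in 2RS30, a difference of 0.56 (level-adjusted 0.17). Both were bright on both arrays, and level-adjusted both lay within the SD between probe sets of 0.64. Tnf was dim in both of its probe sets, which differed by -0.38 and -1.06 (level-adjusted -0.36 and -0.65). Il1rn, the secreted antagonist that blocks the IL1 receptor, read 5.22 in 2RH30 and 4.51 in 2RS30 and was dim, with a difference of 0.71 (level-adjusted 0.88). The signalling receptor Il1r1 went the other way. It read 5.39 in 2RH30 and 6.23 in 2RS30 in its brightest probe set, a difference of -0.83 (level-adjusted -0.98). Its other probe sets were dim and differed by 0.12 and -0.97, so 2 of 3 were lower in 2RH30. The decoy receptor Il1r2 was dim and differed by -0.50 (level-adjusted -0.18). The TNF receptor Tnfrsf1a read 6.97 in 2RH30 and 6.86 in 2RS30, a difference of 0.11 as deposited and of -0.19 level-adjusted.

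Of the chemokines, 3 of 4 were lower in 2RH30 and 1 of them by 2-fold or more. Cxcl12, which holds leukocytes and progenitors in tissue through the receptor Cxcr4, read 5.01 in 2RH30 and 6.74 in 2RS30, a difference of -1.73 (level-adjusted -1.89), or 3.32-fold higher in 2RS30. Only 1.3% of probe sets of similar level lay as low. The other probe sets of Cxcl12 were dim and did not share this difference, with -0.20 and 0.43 (level-adjusted -0.22 and 0.87). Ccl2, which attracts monocytes, read 4.77 in 2RH30 and 5.66 in 2RS30, a difference of -0.89 (level-adjusted -0.86). Cxcl1, which attracts neutrophils, differed by -0.42 (level-adjusted -0.43) and Ccl3, which attracts macrophages and other leukocytes, by 0.17 (level-adjusted 0.06). None of these 3 reached 2-fold.

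The NF-kB pathway held 4 of the 7 genes that were 2-fold or more higher in 2RH30, among 9 measured (44.4%, against 11.5% of all genes). Level-adjusted, 2 of the 9 were past 2-fold (22.2%, against 8.95%), Nfkb2 and Bcl3. The median difference of the 9 was 0.68 (level-adjusted 0.22). The precursor subunit Nfkb1, which gives p50, read 8.38 in 2RH30 and 7.08 in 2RS30, a difference of 1.31 (level-adjusted 0.88), or 2.47-fold. Nfkb2, which gives p52, read 6.13 in 2RH30 and 4.76 in 2RS30, a difference of 1.38 (level-adjusted 1.33), or 2.59-fold. Rela, the activating subunit p65, read 7.55 in 2RH30 and 6.55 in 2RS30, a difference at the 2-fold limit as deposited (level-adjusted 0.67). In both forms these 3 subunits exceeded the SD between probe sets, Rela only narrowly when level-adjusted (0.64). Relb, the partner of p52, was dim and read 5.45 in 2RH30 and 5.39 in 2RS30. Each of these 4 genes has 1 probe set, so no second reading within the array was available for them.

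The regulators of NF-kB did not share 1 direction. Nfkbia, the main inhibitor IkB alpha and itself a target of NF-kB, read 8.50 in 2RH30 and 7.81 in 2RS30, a difference of 0.68 (level-adjusted 0.22). Nfkbib, IkB beta, read 7.61 in 2RH30 and 7.87 in 2RS30, a difference of -0.26 (level-adjusted -0.69). Bcl3, an atypical IkB protein that works in the nucleus with p50 and p52, had the largest difference of the 36 genes. It read 7.78 in 2RH30 and 5.55 in 2RS30, a difference of 2.23 (level-adjusted 1.96), or 4.69-fold, and 0.8% of probe sets of similar level lay as high. This rests on the brightest of its 3 probe sets. The others, also bright, read 6.55 and 6.28 in 2RH30 and 6.31 and 6.12 in 2RS30, differences of 0.24 and 0.16 (level-adjusted 0.01 and -0.04). Tnfaip3, the ubiquitin-editing enzyme A20 that ends NF-kB signalling, was dim and read 3.09 in 2RH30 and 3.59 in 2RS30, with a level-adjusted difference of -0.07. Ikbkb, the catalytic IkB kinase, was lower in both of its probe sets. The brighter read 5.51 in 2RH30 and 6.53 in 2RS30, a difference of -1.02 (level-adjusted -1.20), and the dim one differed by -1.13 (level-adjusted -0.78).

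Several of these genes carry matches to an NF-kB motif near their start. The sequences are shown because they set genes with and without a difference side by side. A promoter of 250 bases before to 50 bases after the start was found in RefSeq (GRCr8 assembly) for 27 of the 36 genes. A strict form of the NF-kB motif was searched, as GGG, any 2 bases and TTTCC, on both strands. It was found in the promoters of 7 of the 27 genes, or 25.9%, and in 512 of all 33469 promoters, or 1.53%. A wider form, GGG, any 5 bases and CC, was in 47.3% of all promoters and in 22 of the 27, and holds every match of the first. The STAT motifs TTCCNNGAA and TTCNNNGAA were in 4.94% and 8.87% of all promoters and in the promoter of Icam1 alone among the 27. The bases from 130 before the start up to the start are printed for 6 of the 7 genes, and 30 bases around the start for Nfkb1, whose match lies 4 to 13 bases into the transcript. Each is written 5′ to 3′ in the direction of the gene, and capitals mark matches to the first motif or its reverse complement.
Nfkb1, chr2:226805440-226805469, minus strand: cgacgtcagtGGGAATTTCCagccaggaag
Nfkb2, chr1:255108244-255108373, plus strand: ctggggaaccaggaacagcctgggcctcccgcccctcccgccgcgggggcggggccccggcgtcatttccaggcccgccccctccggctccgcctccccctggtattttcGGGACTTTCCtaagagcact
Nfkbia, chr6:78597073-78597202, minus strand: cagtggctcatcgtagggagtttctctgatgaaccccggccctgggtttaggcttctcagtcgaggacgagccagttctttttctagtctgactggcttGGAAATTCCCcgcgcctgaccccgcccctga
Tnfaip3, chr1:15543980-15544109, minus strand: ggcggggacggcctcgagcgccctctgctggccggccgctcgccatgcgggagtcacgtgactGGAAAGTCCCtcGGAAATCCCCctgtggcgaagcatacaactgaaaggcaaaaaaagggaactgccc
Il6, chr4:5894576-5894705, minus strand: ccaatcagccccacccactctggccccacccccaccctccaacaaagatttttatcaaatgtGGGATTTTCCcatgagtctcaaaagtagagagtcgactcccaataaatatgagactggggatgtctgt
Cxcl1, chr14:17479322-17479451, minus strand: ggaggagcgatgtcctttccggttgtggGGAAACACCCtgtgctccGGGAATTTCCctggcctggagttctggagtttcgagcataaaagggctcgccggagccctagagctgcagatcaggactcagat
Il1rn, chr3:27520192-27520321, plus strand: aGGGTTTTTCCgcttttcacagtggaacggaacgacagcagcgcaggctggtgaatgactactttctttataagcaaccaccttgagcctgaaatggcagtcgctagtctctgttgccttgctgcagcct

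The 7 genes with this motif differed on the arrays in both directions. Nfkb2, with a match 20 to 11 bases before its start, and Nfkb1 differed by 1.38 and 1.31. Nfkbia, with its match 31 to 22 bases before the start, differed by 0.68 (level-adjusted 0.22), and Il1rn by 0.71 (level-adjusted 0.88). Il6, with a match 68 to 59 bases before the start, differed by -1.48, and Cxcl1, with 2 matches, by -0.42. Tnfaip3 has 2 matches as well and was dim, at -0.50 (level-adjusted -0.07). A match is a description of the letters and not a measure of binding. Neither Bcl3, Lcn2 nor Timp1 holds this strict form in the window. Each of them holds the wider form there, as do 47.3% of all promoters. Bcl3 holds GGGAAGTCCC, 38 to 29 bases before the start, and Lcn2 GGGAATGTCC, 243 to 234 bases before it. Vcam1, lower in 2RH30, holds GGGATTTCCC, 93 to 84 bases before its start. The strict form asks for TTTCC and does not cover these letters. A promoter without it is thus not shown to lack an NF-kB site.

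**Figure D2:**
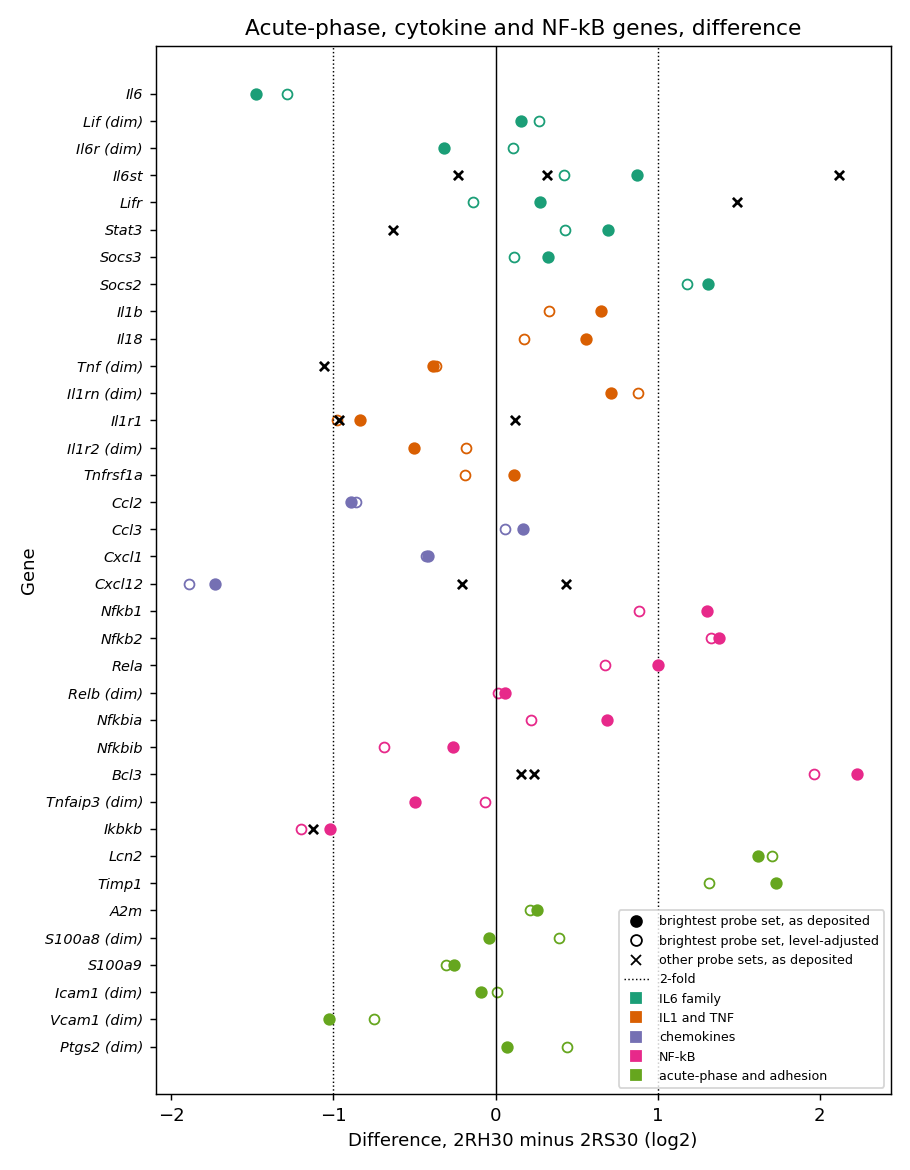
Difference of each of the 36 genes (vertical axis), 2RH30 minus 2RS30 (log2, horizontal axis), for the brightest probe set as deposited (filled) and level-adjusted (open), and for other probe sets of the gene as deposited (crosses). Dotted lines mark 2-fold. Bcl3 at 2.23 lies far from its other probe sets at 0.24 and 0.16, and Cxcl12 at -1.73 from its own at -0.20 and 0.43.

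Among the acute-phase and adhesion genes the secreted proteins Lcn2 and Timp1 were higher in 2RH30 and the others were not by 2-fold. Lcn2, which encodes lipocalin 2, an iron-siderophore binding protein of the acute phase, read 5.87 in 2RH30 and 4.25 in 2RS30, a difference of 1.62 (level-adjusted 1.71), or 3.07-fold. Its value was below the array median in 2RS30 and above it in 2RH30. Timp1, an inhibitor of matrix metalloproteinases that IL6-type cytokines raise, read 8.50 in 2RH30 and 6.77 in 2RS30, a difference of 1.73 (level-adjusted 1.32), or 3.32-fold. Of the probe sets of similar level, 3.9% were as high as Lcn2 and 2.2% as high as Timp1. The study's own lists at baseline and later in the clamp name Lcn2, Timp1 or Socs3, and the abbreviations of its pathway figures name Nfkb1, so that their place here is not independent of it.

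A2m, alpha-2-macroglobulin, an acute-phase protein in the rat, read 5.56 in 2RH30 and 5.30 in 2RS30 and differed by 0.26 (level-adjusted 0.21). S100a8 and S100a9, which encode the subunits of calprotectin from neutrophils and monocytes, differed by -0.04 and -0.26 (level-adjusted 0.39 and -0.31), and S100a8 was dim. The adhesion molecules of activated endothelium, Icam1 and Vcam1, were dim. Vcam1 read 4.05 in 2RH30 and 5.08 in 2RS30, a difference of -1.03 (level-adjusted -0.75), and Icam1 differed by -0.09 (level-adjusted 0.01). Ptgs2, the inducible cyclooxygenase, was dim too and read 4.31 in 2RH30 and 4.25 in 2RS30, a difference of 0.07 (level-adjusted 0.44). The higher values of Lcn2 and Timp1 were thus not shared by S100a8, S100a9, Icam1, Vcam1 or Ptgs2, each of which differed by less than 0.1 or was lower in 2RH30 as deposited.

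Markers of other cell types were read beside these genes. Of 14 macrophage and leukocyte genes, 10 were higher in 2RH30 (71.4%, against 56.1% of all genes). Among the 10, 6 passed 2-fold, and Itgam and Adgre1 were lower past 2-fold. This is 42.9% and 14.3%, against 11.5% and 9.62% of all genes, and level-adjusted 5 genes were higher and 2 lower past 2-fold. The 6 higher as deposited were C1qa, Cd68, C1qb, C1qc, Cd14 and Mrc1, with C1qa furthest at 2.71 (level-adjusted 3.04) and Cd68 next at 1.60 (level-adjusted 1.61). Ptprc, found on all leukocytes, and the macrophage receptor Csf1r were lower at -0.71 and -0.77 (level-adjusted -0.79 and -0.89), so the list did not go 1 way. Its summed level was 10.89 in 2RH30 and 10.23 in 2RS30 on the log2 scale, and 4 were dim. The brightest gene of the list, Lyz2, read 9.76 in 2RH30 and 9.21 in 2RS30 (0.55, level-adjusted 0.03). Of 6 neutrophil genes, 1 was higher as deposited, and the summed level was 7.28 in 2RH30 and 7.79 in 2RS30. Among the 6, 4 were dim, including the defining receptors Csf3r and Cxcr2. Lower past 2-fold were 2 of the 6 (33.3%, against 9.62% of all genes). These were Mmp9 at -1.30 (level-adjusted -1.14) and Cxcr2 at -1.28 (level-adjusted -0.95). Of 7 T and B cell genes, 3 were higher, with a median of -0.11, and 1 was lower past 2-fold, Cd3d at -1.04 (level-adjusted -1.04). Of 7 endothelial genes 5 were higher (level-adjusted 4), with a summed level of 9.39 in 2RH30 and 8.90 in 2RS30. Summed levels were taken as deposited and carry the trend with level. That of the chromaffin genes was 13.47 in 2RH30 and 12.96 in 2RS30. That of all genes was 20.72 in 2RH30 and 20.37 in 2RS30. In pooled tissue, more cells of a type and more RNA per cell cannot be told apart, and the part of these cells in the differences of the cytokine and acute-phase genes was not tested.

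Where a gene had several probe sets, they often went apart. Of the 36 genes, 8 had several probe sets, 21 in all. As deposited the probe sets of 4 genes (Lifr, Tnf, Bcl3 and Ikbkb) shared 1 sign, and level-adjusted those of 2 genes (Tnf and Ikbkb) did. Over all 4525 genes with at least 2 probe sets, the 2 brightest shared their sign in 57.9% as deposited and in 50.9% level-adjusted, and the correlation of their level-adjusted differences was 0.06 across genes, as a description. The range over the probe sets of a gene was widest for Il6st (2.35), Cxcl12 (2.16) and Bcl3 (2.07). Ikbkb, with a range of 0.11, was the gene whose probe sets lay closest as deposited. Counting probe sets in place of genes, 9 of 49 were 2-fold or more higher and 6 were 2-fold or more lower, against 10.4% and 12.1% of all probe sets. The 28 other genes have 1 probe set and no such comparison.

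**Figure D3:**
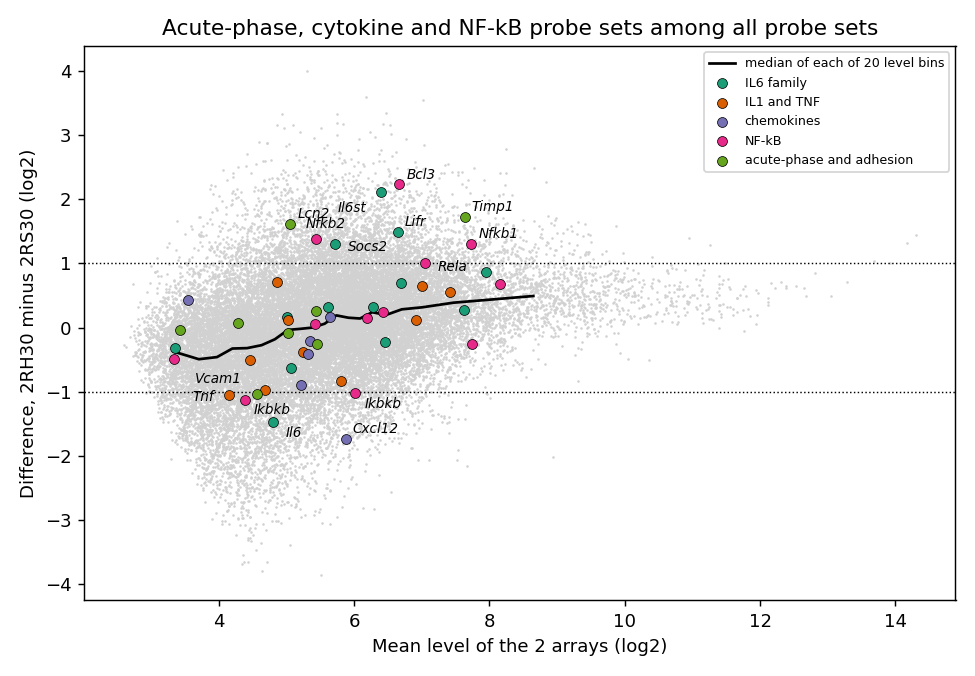
Vertical axis, difference of 2RH30 minus 2RS30 in log2; horizontal axis, mean of both arrays in log2; for all probe sets (grey) and for the 49 probe sets of the genes described (coloured by group). The black line joins the medians of 20 level bins, dotted lines mark 2-fold, and names stand beside the points past 2-fold, with Bcl3 highest at 2.23 and Cxcl12 lowest at -1.73.

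Other genes of the same pathways were listed apart from the 36, and 119 of 133 were measured. Of these, 11 were 2-fold or more higher in 2RH30 and 16 were 2-fold or more lower, and level-adjusted 11 and 12. These are 9.24% and 13.4% (level-adjusted 9.24% and 10.1%), near the shares over all genes of 11.5% and 9.62% (level-adjusted 8.95% and 9.31%). The median difference was -0.02 (level-adjusted -0.00), against 0.11 (level-adjusted 0.02) over all genes, and 59 genes lay above 0 and 60 below. This is 49.6% above 0 in both forms, against 56.1% of all genes (level-adjusted 51.2%). The list thus showed no shift to either side of 0. After quantile normalization, 13 were higher and 12 lower, so that 52.0% of those past 2-fold were higher, against 40.7% as deposited.

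Of the genes named here between receptors and NF-kB, 3 adaptors were higher past 2-fold by the brightest probe set, and a receptor and a kinase were lower. They are the extremes of their groups and not a full count. The kinase Irak1 was also higher past 2-fold as deposited (1.10, level-adjusted 0.88). Irak2 (-1.01, level-adjusted -0.61), Ly96 (-1.23, level-adjusted -1.02) and Tbk1 (-1.30, level-adjusted -0.85), all dim, were lower. Level-adjusted, Ly96 alone of these stayed past 2-fold. Traf6, the ubiquitin ligase that IL1 and Toll-like receptors use, read 7.25 in 2RH30 and 5.35 in 2RS30 (1.90, level-adjusted 1.69), while the remaining ones gave -0.40, 0.49 and -0.30. Ticam1, the adaptor TRIF of Toll-like receptors, was higher in both probe sets, with 6.92 in 2RH30 and 5.58 in 2RS30 in the brighter (1.34, level-adjusted 1.13) and a difference of 1.63 (level-adjusted 1.87) in the dim one. Tradd, the adaptor of the TNF receptor, read 6.94 in 2RH30 and 5.69 in 2RS30 (1.25, level-adjusted 1.04). Map3k7, the kinase TAK1 that activates the IkB kinase, read 4.65 in 2RH30 and 6.09 in 2RS30 (-1.44, level-adjusted -1.46). Tlr4, the receptor for bacterial lipopolysaccharide, read 3.66 in 2RH30 and 5.53 in 2RS30 (-1.87, level-adjusted -1.60). The difference of Tlr4 starts from a 2RS30 value just above the array median.

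Further regulators of NF-kB and TNF signalling were read as follows. Tnip2, a partner of A20, read 7.25 in 2RH30 and 5.71 in 2RS30 (1.53, level-adjusted 1.30), and Usp21, a deubiquitinase, 6.88 in 2RH30 and 5.69 in 2RS30 (1.20, level-adjusted 0.99). Ripk1, a kinase of the TNF receptor complex, differed by 0.75 (level-adjusted 0.63) and in its dim probe set by -0.49. Nfkbiz, an atypical IkB protein like Bcl3, read 8.10 in 2RH30 and 8.34 in 2RS30 and did not share the difference of Bcl3 (-0.23, level-adjusted -0.71). Traf3, a brake on the p52 branch, and Fadd, an adaptor for cell death, differed by -0.75 and -0.61 (level-adjusted -0.91 and -0.85). None of these 4 was past 2-fold.

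Of genes around STAT3, Stat5a, a factor that acts upstream of Socs2, read 6.65 in 2RH30 and 5.63 in 2RS30 (1.01, level-adjusted 0.82), and Stat2, a factor of the interferon response, differed by 0.91 (level-adjusted 0.77). Jak1, the kinase bound to gp130, gave -0.20 (level-adjusted -0.62) by the brightest probe set, whereas the other gave 1.55 (level-adjusted 1.27). Il11, a further gp130 cytokine, differed by -0.49 (level-adjusted -0.62). In the acute-phase group, Cebpd, a transcription factor of acute-phase genes, differed by 2.06 (level-adjusted 1.71), with 1.20 and -0.40 in its other probe sets. Serpina1, alpha-1-antitrypsin, differed by 0.99 (level-adjusted 0.95). Fga, a fibrinogen chain and classical liver acute-phase product, read 4.38 in 2RH30 and 5.90 in 2RS30 (-1.52, level-adjusted -1.46). Il10ra, the IL10 receptor, differed by -1.19 (level-adjusted -1.29), and its dim probe set by 0.42. Of the 24 genes of the acute-phase group, 2 were higher and 4 lower past 2-fold in both forms. This is 8.33% and 16.7%, against 11.5% and 9.62% of all genes (level-adjusted 8.95% and 9.31%). The lower ones included Lbp (-1.23, level-adjusted -1.21), Itih4 as deposited (-1.05, level-adjusted -0.95) and Hp level-adjusted (-0.75, level-adjusted -1.05).

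Chemokine genes outside the list included Ccl5, which attracts T cells and monocytes, at 5.91 in 2RH30 and 3.68 in 2RS30 (2.23, level-adjusted 2.42). In 2RS30 it lay near the 5th percentile of all probe sets, 3.67. Ackr3, a scavenging receptor for Cxcl12, read 6.07 in 2RH30 and 4.97 in 2RS30 (1.09, level-adjusted 1.02), opposite to the brightest probe set of its ligand. Ccr2, the receptor for Ccl2, was lower like that ligand, with 4.73 in 2RH30 and 6.09 in 2RS30 (-1.35, level-adjusted -1.39). Ccr1, a receptor for Ccl3 and Ccl5, read 4.30 in 2RH30 and 5.81 in 2RS30 (-1.51, level-adjusted -1.42). Il1rl1, the receptor for IL33, was lower in both probe sets, at -0.66 and -1.11 (level-adjusted -0.84 and -0.75).

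**Figure D4:**
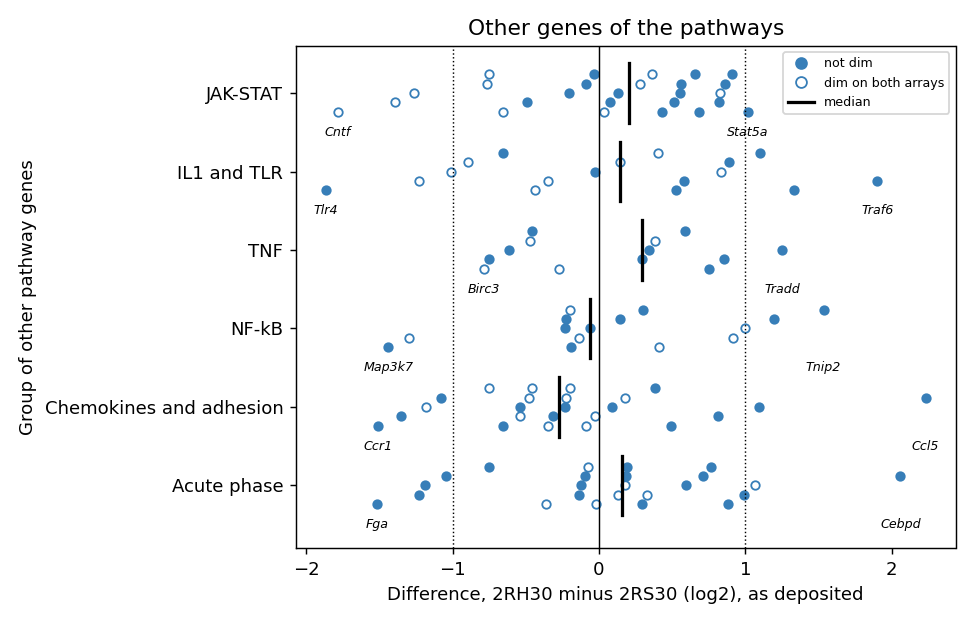
Difference, 2RH30 minus 2RS30 (log2, horizontal axis), as deposited, for 119 other genes of the pathways in 6 groups (vertical axis), with the median of each group (bar) and genes dim on both arrays open. The names mark the highest and the lowest gene of each group, dotted lines mark 2-fold, and points are spread vertically within a group for legibility.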

How the data were processed

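Total RNA of the left adrenal medulla, pooled over 6 rats per group, was labelled and hybridized to 1 array each for 2RH30 and 2RS30, and no other time was analysed here. The authors deposited 1 value per probe set and array, made with Affymetrix Expression Console per the labels and called quantile-normalized in the methods, although the sorted values of the arrays are not the same. For its version, none was found in the sources used here. The log2 scale of the deposited values was read from their range. The methods name GCRMA for the study's own analysis, and whether these values were made so is not stated. No model was fitted, since 1 array per group leaves no spread, and precision is limited by having 1 array each.

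Of the probe sets, 57 controls were set aside. Names came from the platform annotation, with symbols updated by gene number through RefSeq (GRCr8), which matched 20758 of 20826 probe sets naming 1 gene. Genes were read from the probe set with the highest mean level. The level adjustment subtracted a lowess curve (fraction 0.3, 3 iterations). It was run on data simulated from that same curve with small added noise. This checks the computation and not its precision at the spread of these arrays. The SD between probe sets came from genes with at least 2 probe sets that are not dim, level-adjusted, and was used from a level of 5 up. All 36 measured genes are described, and of the other pathway genes the 2 highest and 2 lowest per group that are not dim, by level-adjusted difference. Some others past 2-fold are named beside them. The genes and lists were chosen with earlier results of these data known. Alternatives were median centring, quantile normalization, the lowess adjustment, omitting dim probe sets, thresholds of 1.5-fold and 3-fold, the mean over probe sets, the lowess adjustment joined with that mean, and omitting probe sets that may read more than 1 transcript. Python 3.11.15, pandas 2.3.3, numpy 2.4.6, statsmodels 0.14.6 and matplotlib 3.10.9 were used.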

Additional observations from a re-analysis of the deposited data

How the results depend on the processing

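Against 7 genes that were 2-fold or more higher in 2RH30 and 4 that were lower, 1.5-fold gave 12 and 6, 3-fold gave 3 and 1, and the level adjustment joined with the mean over probe sets gave 4 and 1. At 3-fold the genes were Bcl3, Lcn2, Timp1 and Cxcl12. With the mean over probe sets Bcl3 was 0.87 and Cxcl12 -0.50, because their other probe sets differed less. Socs2, Lcn2, Timp1 and Il6 were past 2-fold in each setting other than the 3-fold threshold, which Socs2 and Il6 missed. Each of these 4 genes has 1 probe set, which is not dim. The settings that average or omit probe sets, and the 1.5-fold threshold, thus could not take them out. Only the 3 between-array scalings and the 3-fold threshold could. The median difference of the 36 genes, 0.14, was 0.32 without dim probe sets, and that of the 119 other pathway genes, -0.02, was 0.29. Of the other pathway genes, against 11 higher and 16 lower, 9 were lower without dim probe sets, 1.5-fold gave 30 and 27 and 3-fold gave 3 and 2. Under the 3 between-array scalings the sign of 31 of the 36 genes was kept, and that of Il6r, Lifr, Tnfrsf1a, S100a8 and Icam1 was not. Of the single-gene values over all settings, 4 moved further than the probe-set SD (Bcl3 and Cxcl12, with the mean over probe sets), and 0 of those past 2-fold turned sign. In a version added after seeing the data, the SD was taken from the 2 brightest probe sets of each gene, dim ones included. Then 5 such values moved further than the SD, and 12 of the 28 genes from a level of 5 up exceeded the SD (42.9%, against 28.3% of all genes), with Il1r1 and Ccl2 beside the 10. Below that level this SD was 0.82, which Il6 (-1.29) and Il1rn (0.88) exceeded and Vcam1 (-0.75) did not. Apart from thresholds and filters, the cause was not tested. No paired analysis was possible because there is 1 array per group. No background measure came with the values, so a detection limit for dim genes cannot be given.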
